A study of Mus musculus with 19 samples.

Results

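The insulin-like growth factor (IGF) system was followed through 10 genes, namely the ligands Igf1 and Igf2, the receptors Igf1r, Igf2r and Insr, and the binding proteins Igfbp2, Igfbp3, Igfbp4, Igfbp5 and Igfbp6. The genes were taken from a fixed list, matched by symbol, and all 10 passed the filter on low counts, among 15129 genes tested of 35675 in all. RNA was sequenced in 19 libraries of primary myoblasts, precursors of muscle that divide in culture and then fuse into multinucleate myotubes. The cells came from mouse hind-limb muscle and carried 1 of 2 genotype labels, WT as the control or Glud1KO, which stands for cells deficient in Glud1 and is written here as KO-labelled. Glud1 encodes the mitochondrial glutamate dehydrogenase. Each label covered dividing myoblasts kept for 24 h in growth medium (3 WT and 3 KO-labelled libraries), differentiated myotubes at 48 h (3 and 2) and fused myotubes at 72 h (4 and 4). How the gene was disrupted, the strain, and the age or number of the mice are not given in the sources used here. The labels call the replicates biological without naming separate animals or cultures, so p-values describe the spread between these libraries, which may be technical.

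The IGF ligands are secreted growth factors of the insulin family. Both act through the tyrosine kinase encoded by Igf1r, and insulin and IGF2 also act through the insulin receptor encoded by Insr, while the receptor encoded by Igf2r carries IGF2 to lysosomes for breakdown. The binding proteins hold the ligands outside the cell and can limit or prolong their access to the receptors. In skeletal muscle, signalling from Igf1r through PI3K, Akt and mTOR is known to favour differentiation and growth of myotubes, and Igf2 is known as a gene that differentiating myoblasts switch on.

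Libraries held 16168131 to 30742634 estimated counts. The common biological coefficient of variation over the 15129 genes was 4.04%. Levels of 1 gene across libraries are given as CPM, its count relative to the scaled total of the library, and levels of different genes are compared as deposited TPM, which also divides by transcript length. For genes that overlap a member, the CPM ratio is given as well, as the ratio of their reads and not of their levels. Differences are log2 fold changes ± SE, and a gene is called where its adjusted p was under 0.05. Glud1 in CPM overlapped between the labels at each stage, with myoblast means of 189 ± 4.16 for WT and 187 ± 2.66 for KO-labelled libraries. Its deposited TPM did not overlap at any stage, with myoblast means of 169 ± 6.1 for WT and 139 ± 3.21 for KO-labelled libraries. File names carry the letters KO for both genotypes, with 1 more letter where the label is Glud1KO, and groups follow the labels. The myotube markers Myog, Mymk, Mymx, Myh3, Ckm and Acta1 summed to 768 to 899 CPM in WT myoblasts and 30865 to 35869 CPM in WT differentiated myotubes. Markers of macrophages summed to at most 1.92 CPM in any library and those of endothelial cells to at most 1.25, with the macrophage marker Tyrobp and the endothelial marker Emcn at 0 throughout. Fibroblast and fibro-adipogenic markers summed to at most 7.59 CPM, with Dpt at 0 in every library, and smooth muscle and pericyte markers to at most 42.2 CPM in myoblasts and 2.45 at the later stages.

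**Figure D1:**
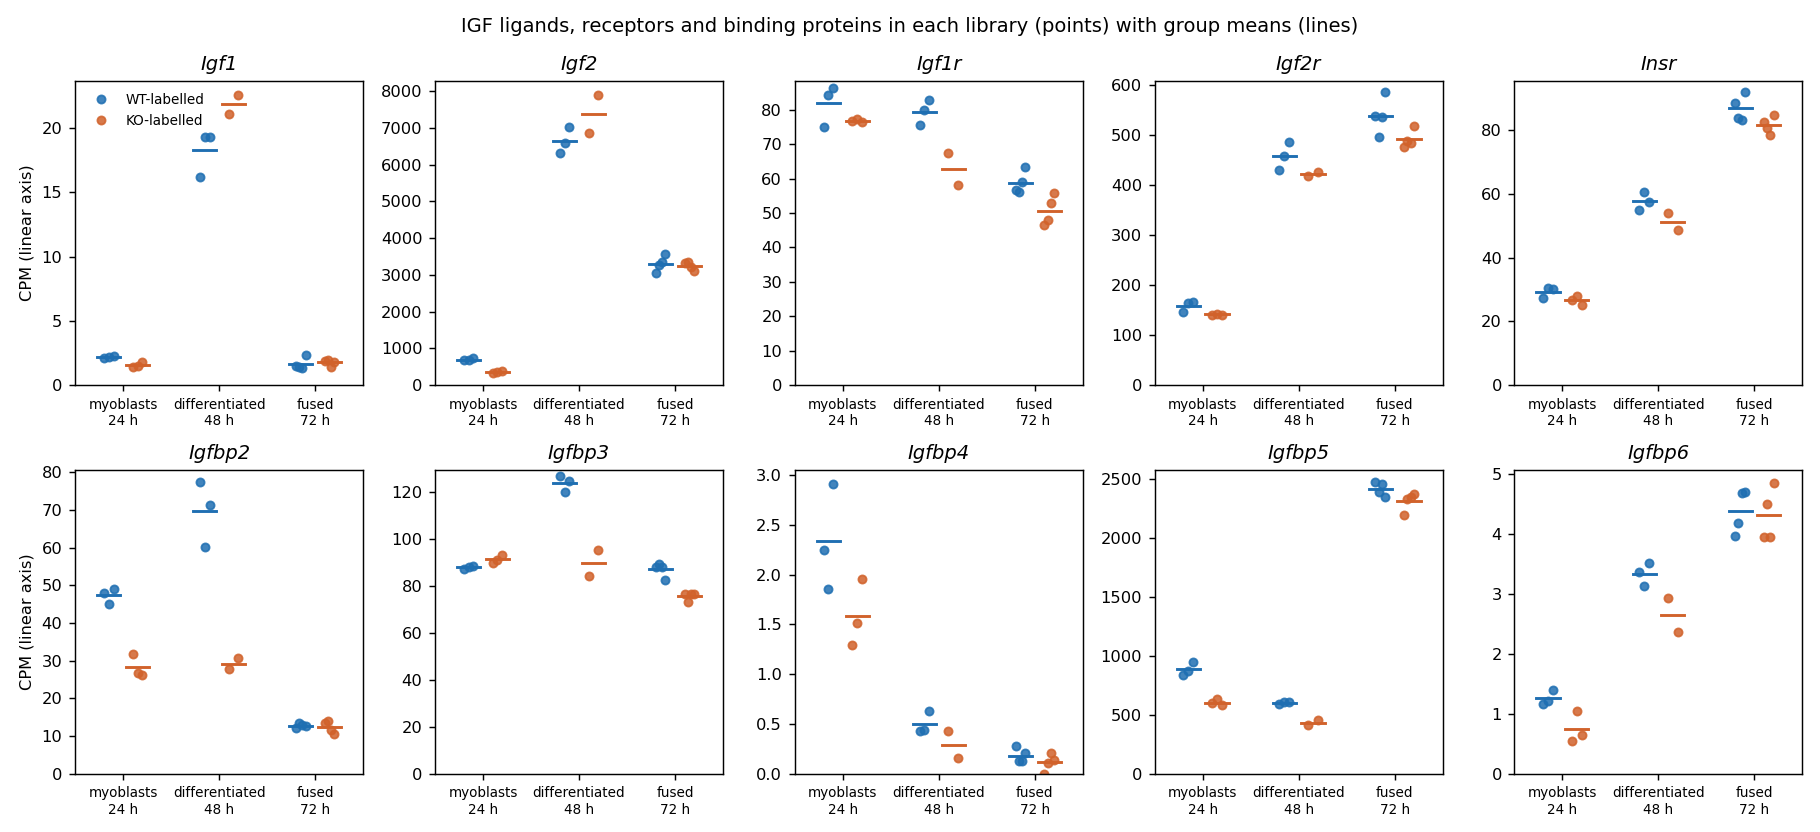
The vertical axes give CPM from 0 in each of the 19 libraries (points) for the 10 genes, in WT (blue) and KO-labelled (orange) libraries at 3 stages, with lines at the group means. Igf1 and Igf2 peaked in differentiated myotubes, Igf2r, Insr and Igfbp6 were highest in fused myotubes, Igfbp4 was highest in myoblasts, and the Igfbp2 points of KO-labelled libraries lie below those of WT at 24 h and 48 h.

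Igf2 was the dominant ligand RNA, low in dividing myoblasts, highest in differentiated myotubes and intermediate after fusion. It stood at 671, 674 and 729 CPM in WT myoblasts, at 6327, 6596 and 7020 in WT differentiated myotubes, and at 3061, 3256, 3353 and 3565 in WT fused myotubes. In KO-labelled libraries it stood at 319, 361 and 378 CPM in myoblasts, at 6873 and 7898 in differentiated myotubes, and at 3319, 3356, 3215 and 3111 in fused myotubes. Every differentiated library lay above every fused one, and every fused one above every myoblast library, under both labels. The rise to 48 h was 9.61-fold in WT (log2 fold change 3.27 ± 0.07 SE, adjusted p = 4.1e-25, from edgeR's quasi-likelihood fit over all genes, as are all p-values here) and 20.9-fold in KO-labelled libraries (4.39 ± 0.08, adjusted p = 4.7e-27). From 48 h to 72 h Igf2 fell 2.01-fold in WT (log2 fold change -1.01 ± 0.06, adjusted p = 1.24e-14) and 2.27-fold under the KO label (-1.18 ± 0.06, adjusted p = 4.85e-15). In bulk RNA of this kind, fewer cells expressing a gene and less RNA per cell cannot be told apart.

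The labels differed for Igf2 in dividing myoblasts. All 3 KO-labelled libraries lay below all 3 WT ones, with means of 353 ± 30.3 and 691 ± 32.8 CPM (SD, n = 3 each), a 1.96-fold lower level (log2 fold change -0.97 ± 0.06, adjusted p = 2.55e-11). At 48 h the means were 7386 ± 725 CPM (n = 2) under the KO label and 6648 ± 350 CPM (n = 3) in WT, the ranges overlapped, and the test did not pass (0.15 ± 0.07, adjusted p = 0.117). It passed there with the replicate block, without the filter on low counts, and without KO-labelled replicate 1, and the adjusted p over the alternatives ran from 0.0324 to 0.75. At 72 h the means were 3250 ± 110 and 3308 ± 209 CPM (n = 4 each), with an adjusted p of 0.824 and an approximate 95% interval of the log2 difference of -0.13 to 0.08. The KO effect in differentiated myotubes minus that in myoblasts was 1.12 ± 0.09 (log2, adjusted p = 1.9e-09), and in fused myotubes minus myoblasts it was 0.95 ± 0.08 (adjusted p = 1.48e-08). Beside the lower Igf2 of KO-labelled myoblasts, 5 of the 6 myotube markers were also lower there, and their sum was 460 to 525 CPM against 768 to 899 in WT, with no overlap. Their part in the Igf2 difference was not tested.

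Igf2 lies on chromosome 7 at 142650766-142666816, minus strand (GRCm38, GENCODE M21), and is annotated with several start sites. One transcript, Igf2-201, took most of the deposited TPM of the gene, with 93 ± 2.54% in WT myoblasts, 91 ± 3.09% in WT differentiated myotubes and 77.5 ± 1.78% in WT fused myotubes (SD). With the KO label its share was 89 ± 0.416%, 90.9 ± 1.27% and 73.5 ± 2.49%. Igf2-203, which begins at the most upstream start, was listed at 0 in every library. The 2 stretches before these starts are shown to set a start with listed TPM beside one without, each 250 bases long, from RefSeq (GRCm38.p6), 5′ to 3′ on the gene's strand and ending at the base before the start. Capitals mark CANNTG, the E-box letters that myogenic factors such as MyoD are known to bind.
Igf2-201 start, chr7:142657497-142657746, minus strand: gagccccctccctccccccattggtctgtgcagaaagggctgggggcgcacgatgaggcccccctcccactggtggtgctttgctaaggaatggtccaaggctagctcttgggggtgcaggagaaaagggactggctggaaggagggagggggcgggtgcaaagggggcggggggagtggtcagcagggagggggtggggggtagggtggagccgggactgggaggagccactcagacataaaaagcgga
Igf2-203 start, chr7:142666817-142667066, minus strand: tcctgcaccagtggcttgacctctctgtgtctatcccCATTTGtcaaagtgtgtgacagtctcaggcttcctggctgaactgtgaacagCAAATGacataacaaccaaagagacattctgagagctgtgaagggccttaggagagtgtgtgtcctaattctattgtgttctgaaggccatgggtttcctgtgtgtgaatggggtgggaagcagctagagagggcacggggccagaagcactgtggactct
The stretch before Igf2-201 held no CANNTG and was 66% G or C, against 50.8% before Igf2-203, which held 2 matches. CANNTG was searched on both strands, on which it reads alike, and 66.2% of 32851 RefSeq windows of the same length held at least 1 match.

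The remaining Igf2 TPM at 48 h and 72 h went mainly to Igf2-208, a short annotated RNA without coding sequence (958 bases, chr7:142650843-142653030) that lies at the 3′ end of the gene. Its share was larger at later stages, with 2.07 ± 1.91% of the Igf2 TPM in WT myoblasts, 5.97 ± 3.22% at 48 h and 20.2 ± 1.49% in fused myotubes. In KO-labelled libraries it took 5.54 ± 1.2%, 6.38 ± 1.24% and 23.8 ± 1.11%. In fused myotubes the KO-labelled libraries (23 to 25.4%) lay above the WT ones (18.8 to 22.1%), and in myoblasts the same held, at 4.2 to 6.5% against 0 to 3.75%. These shares are kallisto's division of reads between overlapping transcripts, weigh a short transcript more than its counts do, and were not tested. Igf2-205, with a start upstream of Igf2-201, took 4.81 ± 0.714% in WT myoblasts and 1.84 ± 0.124% in WT fused myotubes. Its share was above that of Igf2-208 in each WT myoblast library. In KO-labelled myoblasts the shares of both overlapped, at 4.62 to 5.95% for Igf2-205 and 4.2 to 6.5% for Igf2-208.

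**Figure D2:**
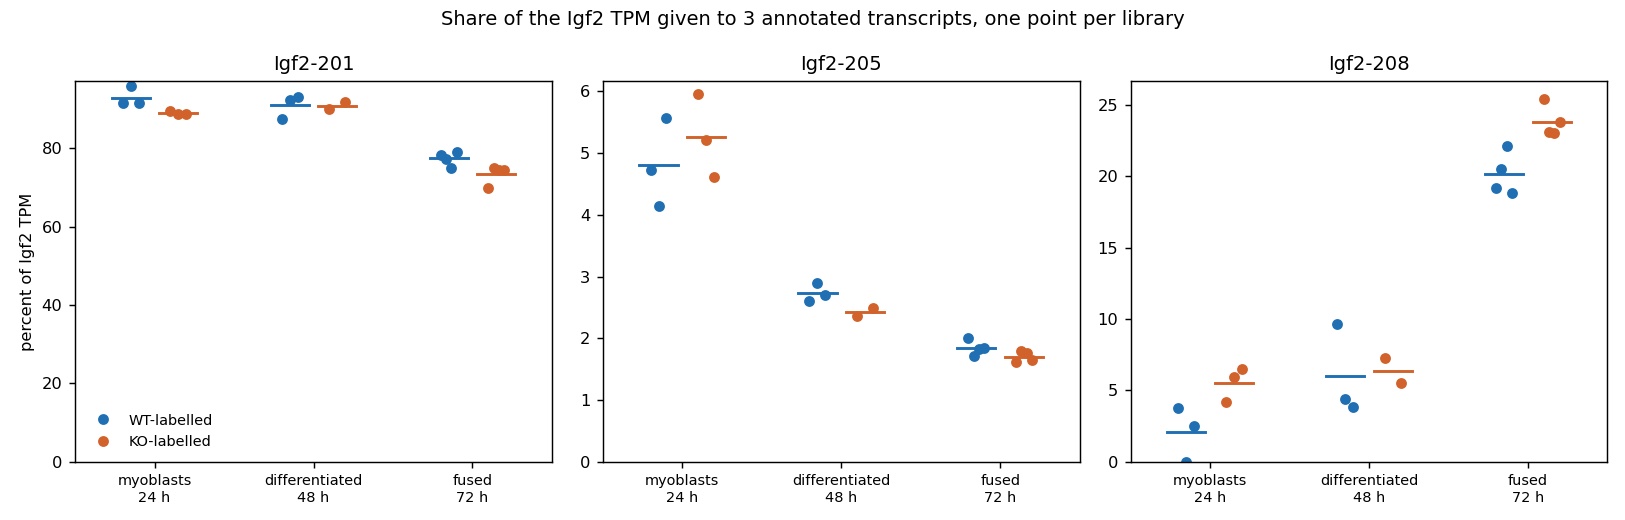
The vertical axes give the percent of the Igf2 TPM listed for Igf2-201, Igf2-205 and Igf2-208 in each library (points; lines are group means), in WT (blue) and KO-labelled (orange) cells at 3 stages. Igf2-208 lies between 18.8 and 25.4% in the fused libraries and at 9.68% or less in all others.

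H19, the maternally expressed long noncoding RNA that shares an imprinted domain with the paternally expressed Igf2, lies 72622 bases away from it. Its RNA stood at 8919 ± 399 CPM in WT myoblasts, 28374 ± 1683 in differentiated and 23555 ± 1133 in fused myotubes. It differed between labels in myoblasts, like Igf2, at 6773 ± 263 CPM under the KO label (log2 fold change -0.40 ± 0.06, adjusted p = 2.22e-05), and the KO effect was higher by 0.56 ± 0.09 at 48 h than in myoblasts (adjusted p = 2.45e-05). The antisense gene Igf2os, which overlaps Igf2, had reads that came to at most 0.296% of the Igf2 CPM. Whether counting used strand is not given in the sources used here.

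Igf1 (chr10:87858265-87937042, plus strand) was a minor ligand RNA at every stage, and Igf2 made up at least 99.1% of the summed TPM of both ligands in each library. Igf1 stood at 2.14, 2.2 and 2.27 CPM in WT myoblasts, at 16.2, 19.3 and 19.3 in differentiated myotubes, and at 1.46, 1.4, 1.3 and 2.31 in fused myotubes. In KO-labelled libraries it stood at 1.43, 1.47 and 1.8 CPM, then at 21.1 and 22.6, then at 1.88, 1.95, 1.41 and 1.8. The differentiated libraries lay clear of all others under both labels. The rise to 48 h was 8.29-fold in WT (log2 fold change 3.05 ± 0.12, adjusted p = 1.39e-18) and 14-fold under the KO label (3.80 ± 0.14, adjusted p = 7.88e-20). The fall to 72 h was 11-fold in WT (-3.45 ± 0.13, adjusted p = 5.58e-19) and 12.6-fold under the KO label (-3.66 ± 0.14, adjusted p = 1.89e-18).

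Igf1 did not pass the test between labels at any stage. In myoblasts KO-labelled libraries lay below WT ones (1.57 ± 0.202 against 2.21 ± 0.064 CPM, log2 fold change -0.50 ± 0.17, adjusted p = 0.0604, and 0.0418 to 0.329 over the alternatives, 3 of which passed). At 48 h they lay above (21.9 ± 1.08, n = 2, against 18.3 ± 1.79 CPM, 0.26 ± 0.11, adjusted p = 0.079). At 72 h the ranges overlapped (0.05 ± 0.19, adjusted p = 0.907). The difference between the effects at 48 h and in myoblasts passed, at 0.75 ± 0.20 (adjusted p = 0.0089), but not after correction for effective transcript length (adjusted p = 0.088). In WT fused myotubes Igf1 was lower than in WT myoblasts (-0.40 ± 0.18, adjusted p = 0.035), and the ranges overlapped. That call was lost in 7 of 15 alternatives, with adjusted p of up to 0.105. Each fit without 1 of the 3 WT myoblast libraries, or without WT fused replicate 1, 2 or 3, lost it. Without WT fused replicate 4, the library at 2.31 CPM, the value was -0.66, and after correction for effective length it was -0.99. The antisense gene Igf1os had reads that came to 0 to 12.1% of the Igf1 CPM. Per length it was close to Igf1 in fused myotubes, at 0.915 ± 0.372 TPM against 0.933 ± 0.322 for Igf1 under the KO label and 0.477 ± 0.362 against 0.607 ± 0.159 in WT. These Igf1os values rest on 1 to 3 estimated counts per library in WT, against 21 to 56 for Igf1. Under the KO label they rest on 1 to 4, against 27 to 35 for Igf1.

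Per length, Igf2 led the members in 5 of the 6 groups. In WT myoblasts the mean TPM was 261 ± 10.2 for Igf2, 225 ± 14.4 for Igfbp5, 71.7 ± 2.88 for Igfbp2 and 61.6 ± 1.14 for Igfbp3, then 28.6 ± 2.16 for Igf2r, 12.1 ± 1.02 for Igf1r and 6.33 ± 1.01 for Insr, with Igfbp4, Igfbp6 and Igf1 at 2.4 ± 0.685 or less. In KO-labelled myoblasts Igfbp5 (151 ± 5.68) stood above Igf2 (135 ± 15), with overlapping ranges. At 48 h Igf2 was far above the rest, at 2398 ± 66.3 TPM in WT and 2428 ± 160 under the KO label, with Igfbp5 next at 139 ± 2 and 90.4 ± 2.96. In fused myotubes Igf2 (1229 ± 49.6 in WT, 1224 ± 37.1 under the KO label) and Igfbp5 (509 ± 22.5 and 478 ± 20.8) stood apart from the other members, of which Igf2r was the highest, at 80 ± 5.57 and 71.6 ± 3.72. Igf2r and Igfbp3 overlapped in WT differentiated myotubes, as did Insr and Igf1 there.

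Igf1r (chr7:67952827-68233668, plus strand) and Insr (chr8:3122061-3279617, minus strand), which encode related receptor tyrosine kinases, moved in opposite directions over the stages. Igf1r stood at 75.1, 84.4 and 86.4 CPM in WT myoblasts, at 75.7, 80 and 82.9 at 48 h, and at 56.6, 56, 59 and 63.5 in fused myotubes. Insr stood at 27.2, 30.5 and 30.2 CPM in WT myoblasts, at 55, 60.5 and 57.6 at 48 h, and at 88.5, 83.9, 83.1 and 92.1 in fused myotubes. The 3 stages of Insr did not overlap, whereas those of Igf1r overlapped between myoblasts and 48 h. Insr rose 2.98-fold from myoblasts to fused myotubes in WT (log2 fold change 1.57 ± 0.05, adjusted p = 1.09e-20) and 3.06-fold under the KO label (1.62 ± 0.05, adjusted p = 5.49e-21). Igf1r fell 1.39-fold over the same span in WT (-0.48 ± 0.06, adjusted p = 2.49e-08) and 1.52-fold under the KO label (-0.60 ± 0.06, adjusted p = 3.76e-10). Between myoblasts and 48 h Igf1r did not pass in WT (-0.04 ± 0.06, adjusted p = 0.53), where scaling by library size alone, which moves the median of all genes by -0.23, gave -0.29 and adjusted p = 9.08e-05. The KO-labelled libraries fell 1.22-fold at this step (-0.29 ± 0.07, adjusted p = 0.000483), without overlap.

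Per length, Igf1r was the more abundant of this pair in WT myoblasts and Insr in WT fused myotubes. Insr TPM made up 34.2 ± 4.04%, 45.8 ± 2.23% and 63.8 ± 2.46% of the summed TPM of both in WT myoblasts, differentiated and fused myotubes. The shares under the KO label were 30.6 ± 0.555%, 50.4 ± 2.78% (n = 2) and 67.3 ± 2.35%. The 2 isoforms of Insr that differ by exon 11 were not analysed here.

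Igf1r was lower under the KO label at the later stages. It stood at 76.8, 77.4 and 76.6 CPM in KO-labelled myoblasts, at 67.6 and 58.1 at 48 h, and at 46.4, 47.9, 52.9 and 55.7 in fused myotubes. At 48 h both libraries lay below the WT ones (log2 fold change -0.34 ± 0.07, adjusted p = 0.000709), and without KO-labelled replicate 2, the lower one, the adjusted p was 0.0566. At 72 h the 4 KO-labelled libraries lay just below the WT ones, whose lowest value was 56 CPM (-0.22 ± 0.06, adjusted p = 0.0153). That call was lost without WT replicate 4 or without KO-labelled replicate 1 or 2, with adjusted p of up to 0.0794. In myoblasts the ranges overlapped (adjusted p = 0.368), and the difference of the KO effect between 48 h and myoblasts did not pass (-0.25 ± 0.09, adjusted p = 0.0583).

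Insr differed little between labels, and its 1 call depended on the processing. At 48 h it was 54 and 48.6 CPM under the KO label (log2 fold change -0.17 ± 0.06, adjusted p = 0.0412), and 7 of 13 alternatives lost the call, with adjusted p of up to 0.418. It stood at 26.7, 28.1 and 25.2 CPM in KO-labelled myoblasts (adjusted p = 0.141) and at 82.7, 80.8, 78.6 and 84.8 in KO-labelled fused myotubes (adjusted p = 0.188), overlapping the WT libraries both times.

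Igf2r (chr17:12682406-12769664, minus strand), whose product removes IGF2, rose with the stage along with Insr. It stood at 146, 165 and 167 CPM in WT myoblasts, at 430, 459 and 487 at 48 h, and at 539, 496, 536 and 586 in fused myotubes. With the KO label it stood at 141, 142 and 141 CPM, then at 419 and 426, then at 476, 488, 485 and 519. The stages did not overlap within a label. The rise from myoblasts to fused myotubes was 3.39-fold in WT (log2 fold change 1.76 ± 0.05, adjusted p = 1.25e-21) and 3.48-fold under the KO label (1.80 ± 0.05, adjusted p = 7.62e-22), most of it by 48 h. Between labels Igf2r missed the threshold in myoblasts (-0.17 ± 0.06, adjusted p = 0.0517, passed in 8 of 14 alternatives), at 48 h (-0.12 ± 0.06, adjusted p = 0.159) and at 72 h (-0.13 ± 0.05, adjusted p = 0.0606, passed in 5 of 16 alternatives). Airn, a noncoding RNA gene that overlaps Igf2r on the other strand, had reads that came to 0.441 to 2.29% of the Igf2r CPM. Per length it stood higher relative to Igf2r, at 15.8 ± 2.17 against 74.5 ± 5.11 TPM in WT differentiated myotubes.

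The binding proteins differed from each other in their course, and Igfbp5 was the most abundant of them per length in every group, a binding protein known for its high expression in muscle cells. Igfbp5 stood at 836, 871 and 950 CPM in WT myoblasts, at 589, 606 and 609 at 48 h, and at 2477, 2394, 2456 and 2350 in fused myotubes. The KO-labelled libraries held it at 597, 634 and 582 CPM, then at 413 and 452, then at 2192, 2334, 2353 and 2375. It was thus lowest at 48 h and highest after fusion under both labels. The rise from 48 h to 72 h was 4.02-fold in WT (log2 fold change 2.01 ± 0.05, adjusted p = 7.82e-23) and 5.35-fold under the KO label (2.42 ± 0.06, adjusted p = 2.42e-22). In myoblasts the KO-labelled libraries lay 1.47-fold below the WT ones (-0.55 ± 0.05, adjusted p = 6.27e-09) and at 48 h 1.39-fold below (-0.48 ± 0.06, adjusted p = 3.21e-07). At 72 h the ranges overlapped (-0.06 ± 0.04, adjusted p = 0.36). The KO effect at 72 h was higher than at 48 h by 0.41 ± 0.07 (adjusted p = 0.000147) and than in myoblasts by 0.49 ± 0.06 (adjusted p = 8.51e-06).

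Igfbp2, the neighbour of Igfbp5 on chromosome 1, took a different course. It stood at 48, 44.9 and 49 CPM in WT myoblasts, at 77.3, 60.2 and 71.3 at 48 h, and at 12, 13.5, 12.8 and 12.7 in fused myotubes. KO-labelled values were 31.8, 26.7 and 26.1 CPM, then 27.8 and 30.6, then 13.4, 14, 11.5 and 10.6. WT libraries were highest at 48 h, KO-labelled ones overlapped between myoblasts and 48 h, and all fused libraries were low. In WT it rose 1.47-fold to 48 h (log2 fold change 0.55 ± 0.08, adjusted p = 1.52e-07) and then fell 5.48-fold (-2.45 ± 0.08, adjusted p = 1.63e-19). Under the KO label the first step did not pass (0.05 ± 0.10, adjusted p = 0.673), with a value of -0.26 and adjusted p = 0.0138 when libraries were scaled by size alone, a scaling that moves the median of all genes by -0.31. The second step was a 2.37-fold fall (-1.24 ± 0.11, adjusted p = 8.83e-11).

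Igfbp2 gave the largest difference between labels among the members called. KO-labelled myoblasts lay 1.67-fold below WT ones (log2 fold change -0.74 ± 0.08, adjusted p = 1.75e-07) and KO-labelled differentiated myotubes 2.38-fold below (-1.25 ± 0.09, adjusted p = 1.37e-10), and both calls held in every alternative run. At 72 h the ranges overlapped (-0.04 ± 0.10, adjusted p = 0.857). The effect at 48 h minus that in myoblasts was -0.51 ± 0.12 (adjusted p = 0.00394), and the effect at 72 h was higher than at 48 h by 1.21 ± 0.14 (adjusted p = 1.09e-06). Beside it at 48 h, 4 of 5 myoblast markers (Pax7, Myf5, Myod1, Des and Mki67) were also lower under the KO label. Their sum overlapped between labels, at 3679 to 4057 CPM against 3668 to 3966 in WT. In WT that sum went from 1765 to 1880 CPM in myoblasts to 5458 to 6057 in fused myotubes. Between these stages 2 of the 5 were called higher and 3 lower. At 48 h 2 of 6 myotube markers were higher under the KO label. The summed myotube markers overlapped, at 31780 to 35957 CPM against 30865 to 35869 in WT. The part of these markers in the Igfbp2 difference was not tested.

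Igfbp2 (chr1:72824503-72852474, plus strand) and Igfbp5 (chr1:72857932-72874884, minus strand) face each other tail to tail with 5457 bases between them. Igfbp2 TPM was shared between Igfbp2-202, with group means of 62 to 69.9%, and Igfbp2-201, with 30.1 to 37.8%, and neither share separated the labels. Igfbp5-201 took 86.6 to 90% of the Igfbp5 TPM as group means. The stretches before these starts are shown because, between 48 h and 72 h, Igfbp2 fell while Igfbp5 rose, and they come again from RefSeq (GRCm38.p6), 5′ to 3′ on each gene's strand, with CANNTG in capitals. Bases that the annotation places in an exon were left out, 65 before Igfbp2-202 and 19 before Igfbp5-201.
Igfbp2-201 start, chr1:72824230-72824479, plus strand: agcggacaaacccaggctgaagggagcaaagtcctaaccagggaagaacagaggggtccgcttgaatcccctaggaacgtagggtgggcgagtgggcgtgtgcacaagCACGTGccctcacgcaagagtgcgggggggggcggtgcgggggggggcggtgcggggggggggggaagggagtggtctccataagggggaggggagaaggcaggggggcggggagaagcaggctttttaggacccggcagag
Igfbp2-202 start, chr1:72825137-72825321, plus strand: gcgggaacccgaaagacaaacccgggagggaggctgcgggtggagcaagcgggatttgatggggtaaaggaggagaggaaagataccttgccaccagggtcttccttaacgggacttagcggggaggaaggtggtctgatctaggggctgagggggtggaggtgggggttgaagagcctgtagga
Igfbp5-201 start, chr1:72874885-72875115, minus strand: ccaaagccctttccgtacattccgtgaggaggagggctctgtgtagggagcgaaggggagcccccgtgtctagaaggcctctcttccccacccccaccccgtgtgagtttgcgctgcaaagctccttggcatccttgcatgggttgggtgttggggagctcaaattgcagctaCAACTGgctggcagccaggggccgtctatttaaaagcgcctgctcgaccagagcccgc
The stretches before Igfbp2-201 and Igfbp5-201 held 1 CANNTG match each, and the shortened stretch before Igfbp2-202 held none, its 1 match lying in the 65 bases left out or across their border. Over all members, 9 of 13 whole RefSeq windows of 250 bases, that of Igfbp2-202 included, held a match, for 9 members with a window. One form of the E-box, CAGCTG, was in 1 of the 13 and in 13% of all windows, and the TATA-box letters TATAAA were in 2 of the 13 and in 12.4% of all. A match is a description of the letters and does not show binding.

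Igfbp3 (chr11:7206086-7213923, minus strand), known as the main carrier of IGFs in blood, was lower under the KO label at both later stages. It stood at 87.5, 88.3 and 88.5 CPM in WT myoblasts, at 127, 120 and 125 at 48 h, and at 88.4, 89.6, 88.2 and 82.6 in fused myotubes. Its KO-labelled levels stood at 89.7, 91.1 and 93.3 CPM, then at 84.4 and 95.6, then at 76.5, 73.2, 76.8 and 76.8. WT libraries at 48 h lay above all others, whereas the KO-labelled ones at 48 h overlapped the KO-labelled myoblasts. In WT the rise to 48 h was 1.41-fold (log2 fold change 0.50 ± 0.04, adjusted p = 1.1e-11) and under the KO label the value was -0.02 ± 0.05 (adjusted p = 0.683), which became -0.33 (adjusted p = 8.15e-07) with scaling by library size alone. The difference between these 2 changes was -0.52 ± 0.06 (adjusted p = 8.47e-07). KO-labelled libraries were 1.38-fold lower at 48 h (-0.46 ± 0.05, adjusted p = 3.23e-08) and 1.15-fold lower at 72 h (-0.20 ± 0.04, adjusted p = 0.00073). In myoblasts the KO-labelled libraries lay above the WT ones without passing the test (0.05 ± 0.04, adjusted p = 0.47).

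Igfbp4 (chr11:99041244-99054392, plus strand), whose product is known to inhibit IGF action, and Igfbp6 (chr15:102144362-102149511, plus strand) were scarce, and changed in opposite directions over the stages. Igfbp4 stood at 2.25, 1.86 and 2.91 CPM in WT myoblasts, at 0.427, 0.435 and 0.634 at 48 h, and at 0.274, 0.127, 0.123 and 0.206 in fused myotubes. Under the KO label the levels stood at 1.29, 1.51 and 1.96 CPM, then at 0.428 and 0.157, then at 0, 0.111, 0.213 and 0.133. Igfbp4 was thus highest in the myoblast libraries, and it fell 4.6-fold by 48 h in WT (log2 fold change -2.20 ± 0.29, adjusted p = 9.67e-08) and 5.34-fold under the KO label (-2.42 ± 0.42, adjusted p = 9.05e-06). At that step in WT the summed fibroblast markers also went from 7.04 to 7.59 CPM down to 0.783 to 1.38, with both tested ones lower. The summed smooth muscle and pericyte markers went from 38.2 to 42.2 CPM down to 1.9 to 2.36, of which Rgs5 was 38.6 ± 2.08 CPM in myoblasts, with 1 of 3 tested lower and 1 higher. Their part in the falls and rises of the members between stages was not tested. The further fall of Igfbp4 to 72 h passed in WT (-1.38 ± 0.46, adjusted p = 0.00838) but not without differentiated replicate 3 or after correction for effective length, with adjusted p of up to 0.147. Between labels it did not pass at any stage, with log2 values of -0.58 ± 0.23, -0.79 ± 0.52 and -0.61 ± 0.62.

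Igfbp6, whose product binds IGF2 with preference over IGF1, stood at 1.16, 1.21 and 1.4 CPM in WT myoblasts, at 3.37, 3.13 and 3.52 at 48 h, and at 3.97, 4.19, 4.69 and 4.7 in fused myotubes. In KO-labelled libraries it stood at 0.544, 1.05 and 0.655 CPM, then at 2.94 and 2.36, then at 3.95, 4.5, 3.96 and 4.86. Igfbp6 rose at each step under both labels, although in WT the step from 48 h to 72 h (0.39 ± 0.14, adjusted p = 0.0158) was lost without differentiated replicate 2 (adjusted p = 0.0552). From myoblasts to fused myotubes the rise was 3.46-fold in WT (log2 fold change 1.79 ± 0.16, adjusted p = 8.68e-11) and 5.76-fold under the KO label (2.53 ± 0.18, adjusted p = 2.8e-13). The difference between these rises did not pass (0.73 ± 0.26, adjusted p = 0.0669). KO-labelled myoblasts lay below WT ones (-0.76 ± 0.22, adjusted p = 0.0223), a call lost without WT replicate 3, KO-labelled replicate 1 or KO-labelled replicate 3, and after correction for effective length, with adjusted p of up to 0.143.

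Per length, Igfbp5 made up most of the binding protein RNA after fusion. Igfbp5 took 62 ± 1.34% of the summed TPM of the 5 binding proteins in WT myoblasts, 44.1 ± 1.99% at 48 h and 87.5 ± 0.305% in fused myotubes. Igfbp2 took 19.8 ± 0.943%, 29.4 ± 2.14% and 2.79 ± 0.174% at these stages, and Igfbp3 took 17 ± 0.646%, 25.1 ± 0.197% and 8.76 ± 0.227%. Under the KO label at 48 h the Igfbp2 share was 19.8 ± 0.681% (n = 2), below the WT libraries, while the shares in fused myotubes were 88.3 ± 0.488% for Igfbp5 and 2.81 ± 0.375% for Igfbp2. The summed TPM was 362 ± 16.1, 316 ± 10.2 and 582 ± 24.3 in WT and 259 ± 3.31, 181 ± 8.25 and 541 ± 20.9 under the KO label. These shares and sums were not tested.

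**Figure D3:**
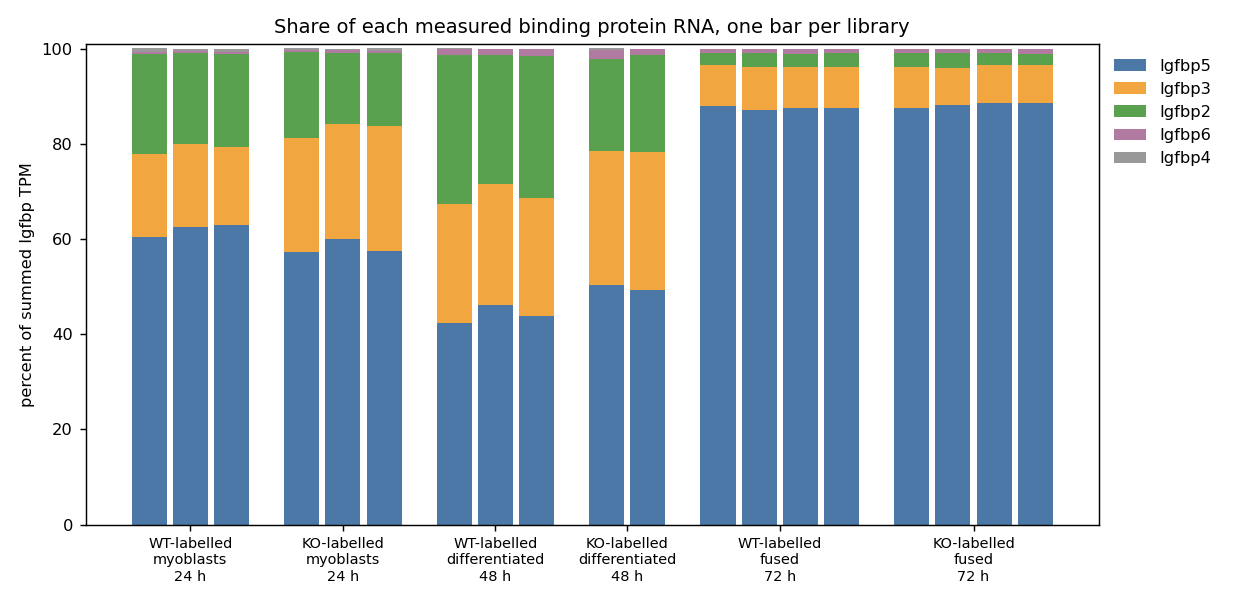
Each bar is 1 library, and its height from 0 to 100 is the percent of the summed TPM of Igfbp2, Igfbp3, Igfbp4, Igfbp5 and Igfbp6, coloured by gene and grouped by label and stage. Igfbp5 (lowest segment) holds between 42.3 and 63% before fusion and between 87.2 and 88.7% in all 8 fused libraries, where Igfbp2 holds at most 3.19%.

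Between stages, most members changed, as did most genes. From myoblasts to 48 h in WT, 7 members rose and 2 fell, where 85% of all genes were called, 42.4% higher and 42.6% lower. Under the KO label at this step 5 rose and 3 fell, where 83.7% were called, 41.3% higher and 42.5% lower. From 48 h to 72 h in WT, 4 rose and 6 fell, where 75.1% were called, 37.3% higher and 37.7% lower. Under the KO label 4 rose and 5 fell there, where 70.2% were called, 35.8% higher and 34.4% lower. The 4 that rose at this step were Igf2r, Insr, Igfbp5 and Igfbp6 under both labels. From myoblasts to fused myotubes 5 rose and 4 fell in WT, where 85.5% were called, 42.2% higher and 43.4% lower, and 5 rose and 4 fell under the KO label, where 87.2% were called, 42.7% higher and 44.6% lower. From 48 h to 72 h the members' shares, 10 of 10 in WT and 9 of 10 under the KO label, lay above the background, with only 10 genes counted, and at the other steps they lay near it.

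**Figure D4:**
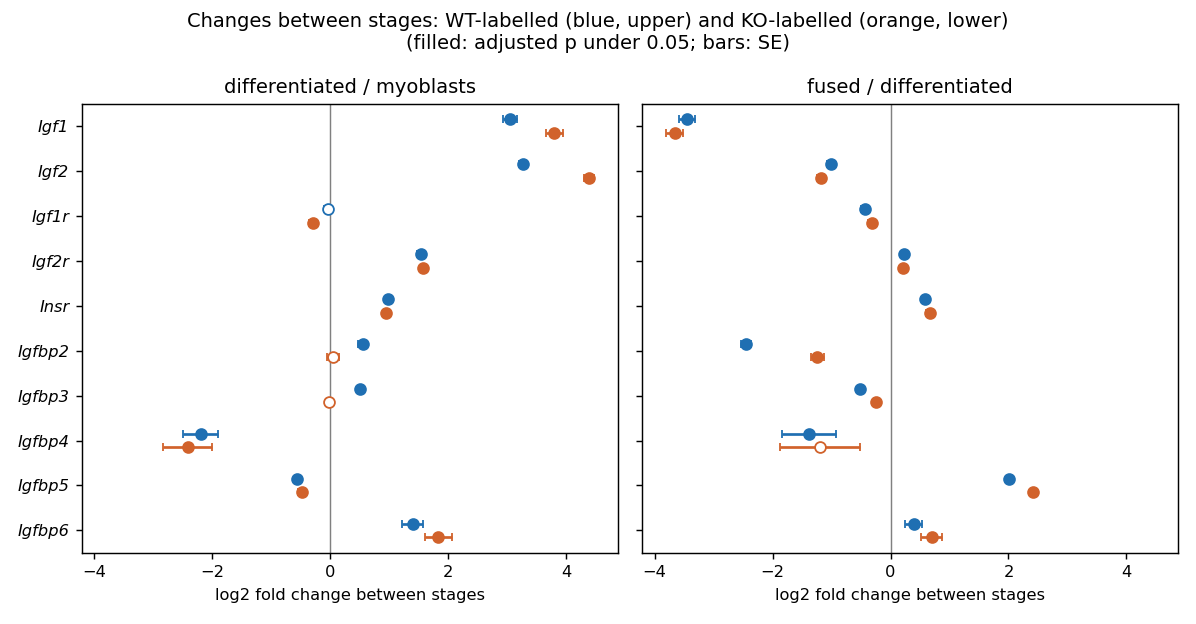
Points give log2 fold changes between successive stages for each gene with the standard error as bars, in WT (blue, upper) and KO-labelled (orange, lower) libraries, filled where the adjusted p was under 0.05. Igf1 and Igf2 lie to the right at 48 h and to the left at 72 h, and Igfbp2 falls by 2.45 in WT against 1.24 under the KO label.

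Between labels, every member called was lower in KO-labelled libraries. In myoblasts 4 of 10 members were called, all lower, where 11.5% of all genes were called, 4.86% higher and 6.67% lower. These were Igf2, Igfbp2, Igfbp5 and Igfbp6, and the median log2 fold change of the 10 members was -0.52, against 0.014 over all genes tested. At 48 h 5 of 10 were called, namely Igf1r, Insr, Igfbp2, Igfbp3 and Igfbp5, where 25.2% of all genes were called, 11.1% higher and 14.1% lower, with a member median of -0.34 against -0.011. At 72 h only Igf1r and Igfbp3 were called, where 13% of all genes were called, 6.33% higher and 6.68% lower, and the member median was -0.08 against -0.006. The count moved to 7 in myoblasts when only the groups compared were fitted, where all genes called went from 1744 to 2528. Over fits without 1 library it ran from 3 to 5, from 3 to 6 and from 1 to 3 at the 3 stages. Of all genes called in myoblasts, 42.1% were higher under the KO label, against 29% with DESeq2 size factors and 19.2% after correction for effective length, and at 48 h 43.9%, against 27% with scaling by library size alone. Beside the lower members in KO-labelled myoblasts stood lower summed markers of fibroblasts (3.99 to 4.81 CPM against 7.04 to 7.59 in WT, 1 of 2 tested called lower) and of smooth muscle and pericytes (32 to 34.5 against 38.2 to 42.2, 2 of 3 called lower). Their part in the differences was not tested.

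**Figure D5:**
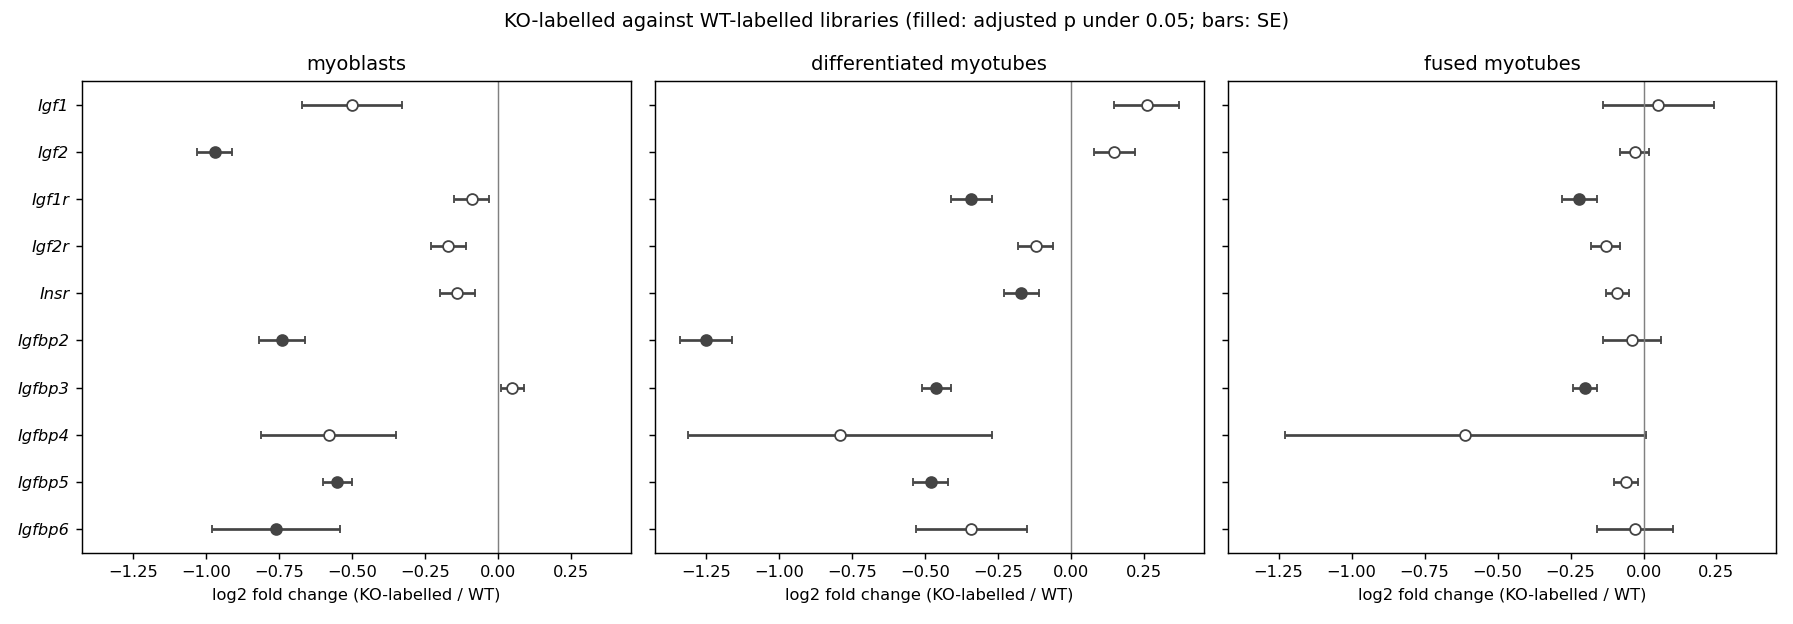
Points give the log2 fold change of KO-labelled over WT libraries with its standard error for each gene in myoblasts, differentiated myotubes and fused myotubes, on 1 shared axis, filled where the adjusted p was under 0.05. All filled points lie left of 0, and Igfbp2 goes from -0.74 to -1.25 and then to -0.04.

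The KO effect itself differed between stages for 5 members. From myoblasts to 48 h, 4 of 10 members passed this test, where 19.1% of all genes did, 7.78% higher and 11.3% lower, with Igf1 and Igf2 moving up and Igfbp2 and Igfbp3 down. From 48 h to 72 h 3 passed, namely Igfbp2, Igfbp3 and Igfbp5, all upward, where 14.8% of all genes passed, 8.27% higher and 6.54% lower. Of these, Igfbp3 (0.26 ± 0.06, adjusted p = 0.0036) was lost without KO-labelled differentiated replicate 1 (adjusted p = 0.0735). Between myoblasts and 72 h 4 passed, with Igf2, Igfbp2 and Igfbp5 moving up and Igfbp3 down, where 10.3% of all genes passed, 5.74% higher and 4.56% lower. The receptors Igf1r, Igf2r and Insr passed in none of these 3 tests, although Igf1r passed from myoblasts to 48 h in 8 of 19 alternatives. These comparisons share libraries with those above and are not independent of them.

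Around the members, 56 further genes of the pathway were examined in 7 lists, of which 49 could be tested. In WT, 26 rose and 20 fell from myoblasts to 48 h, where 85% of all genes were called, and 20 rose and 18 fell from 48 h to 72 h, where 75.1% were. Between labels 5 were called in myoblasts, each lower under the KO label, with 8 higher and 11 lower at 48 h, and 5 higher and 3 lower at 72 h. The shares of all genes called there were 11.5%, 25.2% and 13%, and nothing particular to the pathway is read from these counts. The proteases of binding proteins and their inhibitors gave the widest change among the lists, through Pappa2, whose product cleaves the Igfbp3 and Igfbp5 proteins, and Stc2, whose product inhibits such proteases. Pappa2 went from 0.331 ± 0.139 to 21.4 ± 0.698 and then 6.63 ± 0.743 CPM in WT, peaking at 48 h like Igf1 and Igf2 (log2 fold change 5.94 ± 0.16, adjusted p = 1.46e-22). Stc2 went from 24.6 ± 1.08 to 123 ± 7.56 and then 27.9 ± 0.429 CPM. At 48 h Pappa2 was higher under the KO label, at 38.5 ± 1.56 CPM (0.85 ± 0.09, adjusted p = 5.69e-08). Htra1, a serine protease that also cleaves binding proteins, was lower in KO-labelled myoblasts, at 6.77 ± 0.595 against 12.1 ± 0.214 CPM (-0.83 ± 0.10, adjusted p = 1.64e-06).

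Inside the cell, most adaptors and kinases below the receptors changed with the stage, as did most genes (85% called from myoblasts to 48 h and 75.1% from 48 h to 72 h in WT). All 3 Igf2 mRNA-binding proteins fell from 48 h to 72 h in WT, among them Igf2bp3, from 32.3 ± 0.664 to 12.4 ± 0.865 CPM (log2 fold change -1.38 ± 0.06, adjusted p = 5.24e-17). Of 10 receptor adaptors and inhibitors, 3 rose and 7 fell by 48 h, with the widest change in Grb14, an inhibitor of the insulin receptor, from 8.93 ± 0.613 to 0.626 ± 0.121 CPM and back to 8.11 ± 0.954 after fusion. Of 23 genes of PI3K, Akt and mTOR, 14 rose and 8 fell by 48 h, among them Inppl1, which encodes a lipid phosphatase acting on the product of PI3K, from 256 ± 12.8 to 1239 ± 43 CPM. Between labels, 4 of these 23 genes were called higher and 4 lower under the KO label at 48 h, where 25.2% of all genes were called. At 72 h 3 were higher and 2 lower, where 13% of all genes were called. At 48 h Akt2, the Akt isoform known for insulin action, was among those higher under the KO label (1008 ± 37.2 against 801 ± 28.6 CPM, 0.33 ± 0.04, adjusted p = 1.32e-06). In fused myotubes Pik3r1, a regulatory subunit of PI3K, was higher under the KO label (33.7 ± 1.01 against 25.3 ± 0.927 CPM, 0.41 ± 0.05, adjusted p = 7.23e-06).

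Likeness of pattern was measured as the root mean square difference, over 6 group means of log2 CPM centred per gene, among 10569 or 10570 genes with a mean of at least 1 CPM in every group. Insr was closest to Mtor, which encodes a kinase, at 0.03, and then to Letm2 at 0.05. Igf2r was closest to Pja2 at 0.05, Igf1r to Mxra7 at 0.05 and Igfbp3 to Rps6ka2 at 0.06. Igf2 was closest to Ptprf at 0.11 and Sorbs2 at 0.14, Igfbp6 to Arxes2 at 0.10, Igfbp5 to Sgsh at 0.16 and Igfbp4 to Fkbp10 at 0.17. Igf1 (Krt80 at 0.27) and Igfbp2 (Gm14308 at 0.30, Pdia4 at 0.32) had no gene as close as the others had. The points of each pattern share libraries and scaling, and the values are a description of 6 means.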

How the data were processed

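RNA libraries (TruSeq mRNA, per the labels' protocols) of 19 samples in 6 groups were analysed. Each deposited file lists 121843 mouse transcripts with estimated counts, TPM (a length-scaled share of transcripts) and effective lengths in the layout that kallisto writes, per the file headers. Per the submitters' processing notes, which give no roles, the tools were bcl2fastq 2.20, fastp 0.20.0, kallisto 0.46.1 and edgeR 3.36, with build GRCm38.p6. The annotation release and the strand setting are not given in the sources used here. The authors' TPM values, which kallisto scales by effective length and depth, were used only as deposited, summed per gene, for levels between genes and shares between transcripts.

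Transcripts were matched by identifier to GENCODE M21 (121104 matched, 120830 with the same length). The 739 unmatched held 0.244 to 0.496% of counts and were left out, and estimated counts were summed to 35675 genes and rounded to whole numbers. Libraries held 16168131 to 30742634 counts. Replicates differed by more than counting noise (chi-square per degree of freedom 2.07 to 7.07), which does not tell biological from technical spread. Each library was counted as 1 replicate. In R 4.3.3, edgeR 4.0.16 (filterByExpr, TMM scaling, glmQLFit and glmQLFTest over all 19 libraries with 1 coefficient per group) tested 15129 genes in 12 comparisons, with Benjamini-Hochberg adjustment over all genes and a threshold of 0.05. The 12 were genotype labels within each of 3 stages, 3 stage steps within each label, and the 3 differences of the label effect between stages. The model was also tested on simulated counts. Alternatives were DESeq2 1.42.0 and its size factors, library size alone, other count filters, only the groups compared, an offset for effective length, a replicate block and each library left out. Intervals of log2 differences are the value ± the normal quantile times the SE. CPM in single libraries are after TMM scaling. Python 3.11.15, pandas 2.3.3, numpy 2.4.6, scipy 1.17.1 and matplotlib 3.10.9 were used for tables and figures.

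All 10 members are named. Of each pathway list, only the 2 genes with the largest absolute change among those called in a comparison, with a mean of at least 1 CPM in the higher group, could be named, and 2 like genes per member. One gene that this rule names is not reported here. The members, lists and tests were chosen with earlier results of these data known. Promoter sequences come from RefSeq (GRCm38.p6), with windows for 9 of the 10 members. Replicate numbers did not pair the libraries (41 pairs of the same number, correlations of deviations -0.0536 to 0.0561).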

Additional observations from a re-analysis of the deposited data

Results flagged for a closer look

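In 2 of 20 groups of 4 libraries, 1 library stood apart from the others by its gap relative to the range of the group. WT fused replicate 4 was the highest for Igf1, at 2.31 CPM with a gap of 0.836 of the range. KO-labelled fused replicate 2 was the lowest for Igfbp3, at 73.2 CPM with a gap of 0.913 of the range. For independent, normally spread values, chance alone flags about 1 in 20 such groups, whereas the groups here share libraries.

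The effect of the KO label differed between stages in 11 of the tests made on members, each with an adjusted p from edgeR's fit of the difference itself. From myoblasts to differentiated myotubes the log2 effect changed by 0.75 ± 0.20 for Igf1 (adjusted p = 0.0089), by 1.12 ± 0.09 for Igf2 (1.9e-09), by -0.51 ± 0.12 for Igfbp2 (0.00394) and by -0.52 ± 0.06 for Igfbp3 (8.47e-07). From differentiated to fused myotubes it changed by 1.21 ± 0.14 for Igfbp2 (1.09e-06), by 0.26 ± 0.06 for Igfbp3 (0.0036) and by 0.41 ± 0.07 for Igfbp5 (0.000147). From myoblasts to fused myotubes it changed by 0.95 ± 0.08 for Igf2 (1.48e-08), by 0.70 ± 0.13 for Igfbp2 (0.000682), by -0.25 ± 0.06 for Igfbp3 (0.00374) and by 0.49 ± 0.06 for Igfbp5 (8.51e-06).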

How the results depend on the processing

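Of 120 member results, 76 were called, and 66 of these kept their call and direction in every alternative run. Over 1898 member values under alternatives, 1781 kept direction and side of the threshold, 29 lost a call, 35 gained one, 52 uncalled values changed sign and 1 reversed into a call. That one was Igfbp2 from myoblasts to 48 h under the KO label, at -0.26 with scaling by library size alone against 0.05.

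The offset for effective length lowered the genes called between labels from 1744, 3813 and 1968 to 589, 2149 and 824 in myoblasts, differentiated and fused myotubes. It lowered those called for a difference of the label effect from 2892, 2241 and 1559 to 1454, 981 and 667. The cause was not tested. With only the groups compared in the fit, 7 members were called between labels in myoblasts against 4, and 2528 genes against 1744. The replicate numbers did not pair the libraries: the same number correlated best in 13 of 41 pairs, and with the replicate block 1664, 3664 and 1858 genes were called between labels.

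With 1 library left out, genes called between labels ran from 920 to 1345, from 2635 to 3630 and from 1387 to 1954, and members called from 3 to 5, from 3 to 6 and from 1 to 3. The lowest myoblast counts were 920 (WT replicate 3 left out), 1072 (KO-labelled replicate 3) and 1139 (KO-labelled replicate 1). At 48 h 3 members were called without KO-labelled replicate 2 and 6 without replicate 1, and at 72 h 1 was called without WT replicate 4 or KO-labelled replicate 1 or 2, and 3 without WT replicate 2 or KO-labelled replicate 4. Members called between stages ran from 8 to 10, and for differences of the label effect from 4 to 5, from 2 to 3 and from 4 to 5. Fewer than 4 libraries in 4 of the 6 groups limit the precision of every comparison that uses them.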
